A study of Mus musculus with 48 samples.

Results

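The genes described here mark the dopamine neurons of the ventral midbrain: Th, Ddc, Slc6a3, Slc18a2, Aldh1a1, Ret, Nr4a2, Pitx3, Foxa2 and En1. They are 10 of the 19752 gene symbols that could be named on mRNA arrays of WT and Tg2576 mouse brain. Each gene was read from 1 probe, and where the array carried 2, the brighter on average over the 24 arrays was taken. The set was chosen by cell type after results of these arrays had been seen, among them the levels of these genes in Tg2576 and WT cortex at 10 months, so that contrast is given as a description without a test.

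Cortex or whole brain was taken from male mice at 10 or 17 months of age, which the study's design places in the early and the plateau phase of Aβ accumulation. WT mice were of strain C57BL/6J. The study's methods name different suppliers for the WT and the Tg2576 mice, so supplier and genotype cannot be told apart. Tg2576 mice, labelled Tg(APPSWE)2576Kha, carry a human amyloid precursor protein gene with the Swedish mutation behind a hamster prion promoter, which is active in neurons throughout the brain and is not particular to dopamine neurons. The 8 groups of genotype, tissue and age held 3 arrays each, and no drug or other treatment is named in the labels. The sources used here do not say whether the cortex and the whole brain came from the same animals, and p-values measure the spread between these samples only.

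Each array measured between 34162 and 41103 of 55681 probes well above background, and the arrays lay on 3 slides. A level is given throughout as the log2 of the processed intensity minus the 75th percentile of that array, so that 0 is the intensity of the 75th percentile probe and a difference of 1 is a doubling. Levels of different genes come from different probes and are not compared with each other. The cortical genes Tbr1 and Emx1 were well above background on all 24 arrays. The App probe lay between 5.77 and 6.42 on all of them and did not separate Tg2576 from WT in cortex or in 17-month whole brain. In 10-month whole brain it read 5.96 to 6.11 in Tg2576 and 5.77 to 5.82 in WT. It is therefore no consistent check of the transgene. Of the members, 8 were well above background on all 24 arrays, Foxa2 was so on 12 and En1 on 0, and counts of members below refer to those 8.

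Dopamine neurons make dopamine from tyrosine. Tyrosine hydroxylase (Th) makes L-DOPA with tetrahydrobiopterin as cofactor, and aromatic L-amino acid decarboxylase (Ddc) turns L-DOPA into dopamine. The vesicular monoamine transporter Slc18a2 loads dopamine into vesicles and the dopamine transporter Slc6a3 takes it up again after release. The cell bodies lie in the substantia nigra and the ventral tegmental area, outside the cortex, where their axons end. Th is also made by noradrenaline neurons, by hypothalamic neurons and by periglomerular interneurons of the olfactory bulb, and Ddc and Slc18a2 are shared with serotonin neurons, whereas Slc6a3 is held mostly by midbrain dopamine neurons. Foxa2, En1, Nr4a2 and Pitx3 are transcription factors that specify and maintain these neurons, and Nr4a2 is also made by neurons of the deep cortical layers and the claustrum. Ret is the receptor of glial cell line-derived neurotrophic factor and its relatives, and Aldh1a1, an aldehyde dehydrogenase, is found in the ventral tier of the substantia nigra and in other brain cells.

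Promoter sequences in RefSeq (GRCm38.p6) were found for 9 of the 10 genes and not for Ret, and 13 start sites were searched on both strands over the 250 bases before the start for a cAMP response element (TGACGTCA), an NBRE, the binding site of Nr4a2 (AAAGGTCA), a FOXA motif (TGTTTAC) and a PITX motif (TAATCC). No searched motif contains another. Of these start sites, that of Th held the cAMP response element, 38 to 45 bases before the start, and 1 of 2 starts of Ddc held the NBRE on the opposite strand, 66 to 73 bases before it. The cAMP response element was found in 1.55% of 32851 promoters, the NBRE in 1.34%, the FOXA motif in 3.17% and the PITX motif in 6.25%. A match describes letters in this window and is not a measured binding site. The promoters of Th (chr7:142899996-142900245, minus strand) and of that start of Ddc (chr11:11898145-11898394, minus strand) are shown for these motifs, in capitals, and that of Slc6a3 (chr13:73536497-73536746, plus strand) because Slc6a3 differed most between the WT tissues among members measured on all arrays, and none of the searched letters stand there. GC content was 64.4% in the Th window, 40.8% in that of Ddc and 66.0% in that of Slc6a3.
Th: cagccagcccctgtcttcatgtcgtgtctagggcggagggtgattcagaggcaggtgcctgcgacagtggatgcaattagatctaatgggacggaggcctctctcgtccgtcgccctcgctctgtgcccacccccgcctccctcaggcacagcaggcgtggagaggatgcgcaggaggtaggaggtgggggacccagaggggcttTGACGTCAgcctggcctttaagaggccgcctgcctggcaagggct
Ddc: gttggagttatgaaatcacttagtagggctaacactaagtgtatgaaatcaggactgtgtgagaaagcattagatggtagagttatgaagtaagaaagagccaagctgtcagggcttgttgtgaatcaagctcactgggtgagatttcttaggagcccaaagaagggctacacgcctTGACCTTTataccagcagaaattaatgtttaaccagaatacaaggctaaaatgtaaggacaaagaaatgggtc
Slc6a3: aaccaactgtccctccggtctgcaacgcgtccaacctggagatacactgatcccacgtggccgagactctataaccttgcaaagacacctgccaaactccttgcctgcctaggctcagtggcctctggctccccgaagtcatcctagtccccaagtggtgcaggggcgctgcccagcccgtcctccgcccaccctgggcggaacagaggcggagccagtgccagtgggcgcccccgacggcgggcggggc

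Th, the rate-limiting enzyme, had its lowest group means in WT cortex. Th read 1.34, 0.73 and 0.47 on the WT cortex arrays of 10 months and 1.63, 1.52 and 0.26 on those of 17 months. Tg2576 cortex read 2.85, 3.17 and 1.5 at 10 months and 1.88, 3.03 and 2.23 at 17 months. At each age all 3 Tg2576 cortex arrays lay above the 3 WT cortex arrays. WT whole brain read 2.89, 2.03 and 2.21 at 10 months and 2.83, 2.30 and 2.74 at 17 months, and Tg2576 whole brain 2.58, 2.86 and 2.14, then 3.07, 2.61 and 2.80. In order of group means, 6 groups between 2.38 and 2.83 preceded WT cortex of 17 months (1.14) and of 10 months (0.85), and the step from WT whole brain of 10 months to WT cortex of 17 months was the 1 step of 7 without overlap and beyond the pooled SD.

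Slc6a3 had the widest range of the members measured on all arrays, from -4.40 to 2.43. It read -2.37, -3.09 and -4.40 in WT cortex at 10 months and -2.57, -2.78 and -3.11 at 17 months. The Tg2576 cortex arrays read -0.10, -1.46 and -2.06 at 10 months and 1.33, 2.43 and -1.66 at 17 months. Both Tg2576 cortex groups lay above both WT cortex groups without overlap, and within the older one replicate 3 lay far below replicates 1 and 2. Whole brain of WT mice read 0.56, 1.72 and 1.60 at 10 months and 1.51, 1.44 and 1.22 at 17 months, while that of Tg2576 mice read 1.66, 0.19 and 1.33, then 1.88, 1.71 and 1.59. Replicates 1 and 2 of 17-month Tg2576 cortex thus read within or above the whole brain range, which ended at 1.88. The order of means ran from Tg2576 whole brain at 17 months (1.73 ± 0.14, SD, n = 3) through the 3 other whole brain groups (1.39, 1.29 and 1.06), Tg2576 cortex at 17 months (0.70 ± 2.12) and at 10 months (-1.20 ± 1.0) to WT cortex at 17 months (-2.82 ± 0.28) and at 10 months (-3.29 ± 1.03). Of the 7 steps in that order, 3 exceeded the pooled SD and 2 were without overlap, the first step and that from 10-month Tg2576 cortex to 17-month WT cortex.

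**Figure D1:**
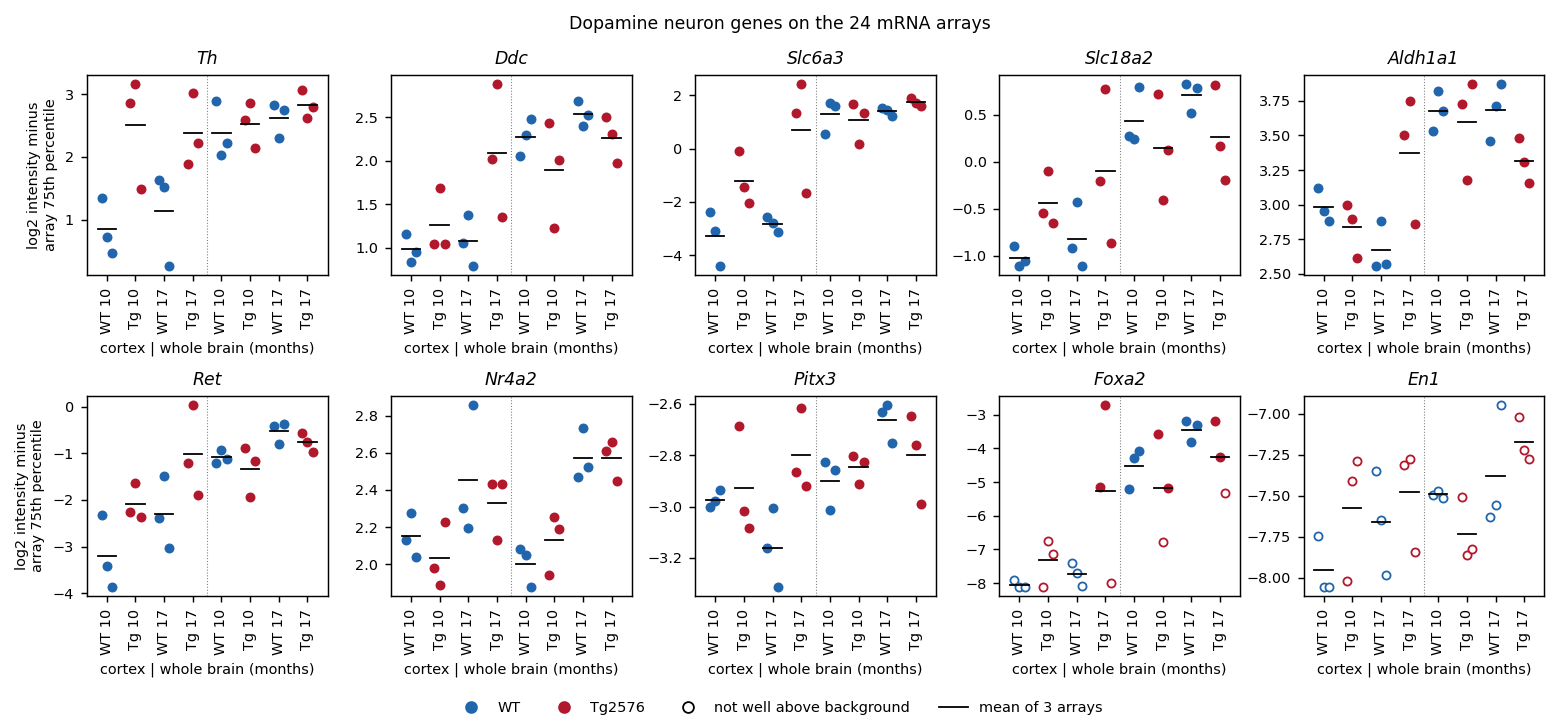
Level (log2 processed intensity minus the 75th percentile of the array) of the 10 genes on each of the 24 arrays, by tissue, age in months and genotype, with the mean of 3 arrays as a line and open circles for readings not well above background. The vertical scale differs between genes. In WT cortex Slc6a3 read -4.40 to -2.37 and Th 0.26 to 1.63, below all Tg2576 cortex arrays of the same age. En1 was not well above background on any array.

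The patterns of the other members were not sharply separate. Ddc, Slc18a2 and Ret followed Slc6a3 with smaller differences. Aldh1a1 separated the tissues in WT mice and had a Pearson r of 0.80 with Slc6a3 over the 12 cortex arrays. Nr4a2 and Pitx3 had narrow ranges, with an r of -0.13 and 0.71 on those arrays. Ddc lay between 0.79 and 1.37 on the 6 WT cortex arrays and between 2.06 and 2.69 on the 6 WT whole brain arrays. Slc18a2 lay between -1.11 and -0.43 and between 0.24 and 0.83 on the same arrays. Ret, the growth factor receptor, ranged from -3.87 to -1.48 in WT cortex and from -1.20 to -0.38 in WT whole brain. For each of them every WT whole brain reading exceeded every WT cortex reading. Nr4a2 ranged from 1.88 to 2.86 and Pitx3 from -3.31 to -2.60 over all 24 arrays. Foxa2, a pioneer factor of the midbrain floor plate, was not well above background on any WT cortex array or any 10-month Tg2576 cortex array. It was measured on all 6 WT whole brain arrays, between -5.21 and -3.20, and on 4 of 6 Tg2576 whole brain arrays. In 17-month Tg2576 cortex it was measured on replicate 1 (-5.14) and replicate 2 (-2.71), the arrays with the highest Slc6a3 in cortex. En1, the engrailed homeobox factor, gave -8.06 to -6.94 and has no level here. Of 7 neighbouring steps between group means, 2 exceeded the pooled SD for Ddc, 2 for Slc18a2, 3 for Ret, 1 for Aldh1a1, 1 for Nr4a2 and 2 for Pitx3, and most neighbours overlapped.

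Whole brain against cortex asks how far these genes separate a tissue that contains the midbrain from one that does not. In 17-month WT mice 6 of the 8 members were higher in whole brain with an adjusted p below 0.05, where 3.86% of 38029 tested probes were called higher, and their median difference was 1.48 against -0.02 over all probes. Slc6a3 differed by 4.21 (SE 0.16, 18.5-fold, adjusted p = 0.00531, limma). Ddc was higher by 1.46 (2.76-fold, adjusted p = 0.0203) and Slc18a2 by 1.53 (2.89-fold, adjusted p = 0.0206). Ret was 3.41-fold higher (difference 1.77, SE 0.39, adjusted p = 0.0433), Aldh1a1 2.02-fold (1.01, SE 0.14, adjusted p = 0.0216) and Pitx3 1.41-fold (0.50, SE 0.10, adjusted p = 0.0370). Th differed by 1.49 (SE 0.38, adjusted p = 0.0615) and Nr4a2 by 0.12 (adjusted p = 0.684). Foxa2, below background in all 3 cortex samples, was at least 7.63-fold higher in whole brain (adjusted p = 0.0106). This bound sets the whole brain mean against the lowest intensity measured above background.

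In these bulk samples, fewer dopamine cells and less RNA per cell cannot be told apart. The count of 6 rested on its arrays: 1 member, Slc6a3, was called without replicate 1 of WT cortex or without replicate 1, 2 or 3 of WT whole brain, and 7 without replicate 3 of WT cortex, where Th also passed (adjusted p = 0.0283). WT cortex of 17 months lay on slides 1 and 2 and WT whole brain on slide 3, so slide and tissue cannot be told apart. With slide as a random block, which cannot separate them, 4 were called, Ret (adjusted p = 0.0810) and Pitx3 (0.0720) no longer passing. Of the probes called in either direction, 37.4% were higher in whole brain, and 54.4% were when arrays were centred on their median.

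At 10 months the WT differences had similar sizes and none of the 8 members passed, where 0.0101% of 39485 probes were called. At an unadjusted p under 0.05, 6 of 8 passed, against 23.7% of all probes, and the same 6 did not overlap between the tissues, against 31.5%. Slc6a3 differed by 4.58 (SE 0.57, 24-fold, adjusted p = 0.0629), Ret by 2.13 (SE 0.38, adjusted p = 0.0749) and Th by 1.53 (SE 0.30, adjusted p = 0.0805). Ddc differed by 1.30 (adjusted p = 0.0604), Slc18a2 by 1.46 (adjusted p = 0.0629) and Aldh1a1 by 0.69 (adjusted p = 0.0654). Nr4a2 (-0.15, adjusted p = 0.385) and Pitx3 (0.07, adjusted p = 0.575) overlapped. Foxa2 was at least 4.29-fold higher in whole brain (adjusted p = 0.0591). After normexp background correction 6 members were called, 5 in a model over all 24 arrays, and 1, Ret, without replicate 1 of WT cortex. Cortex lay on slide 1 and whole brain on slide 2, so slide and tissue cannot be told apart.

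In 17-month Tg2576 mice no member passed between the tissues (1.97% of 38592 probes called), and none did at an unadjusted p under 0.05 (20.9%). Slc6a3 differed by 1.03 with an SE of 0.98 (adjusted p = 0.591), Th by 0.45 (adjusted p = 0.440) and Foxa2 by 1.01 (adjusted p = 0.702). Without replicate 3 of Tg2576 cortex the Slc6a3 difference was -0.15, the sign turning. Of the 8, Nr4a2 alone had no overlap (0.24, adjusted p = 0.294), against 28.8% of all probes. Here too each tissue lay on a slide of its own, so slide and tissue cannot be told apart. In 10-month Tg2576 mice, given without a test, whole brain exceeded cortex by 2.26 for Slc6a3 and by 0.02 for Th, and Foxa2 was at least 2.13-fold higher. Th in the 10-month Tg2576 cortex thus read as high as in whole brain, and Slc6a3 did not. These cortex arrays lay on slide 1 and the whole brain arrays on slides 2 and 3, so slide and tissue cannot be told apart.

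**Figure D2:**
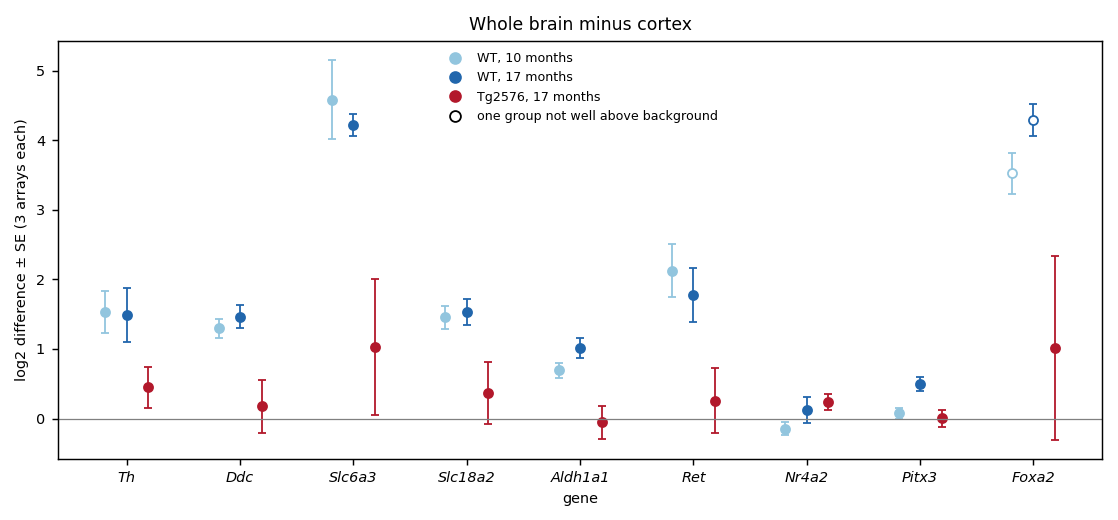
Whole brain minus cortex (log2 difference with the SE of the limma fit, 3 arrays in each group) for 9 genes in WT mice at 10 and 17 months and Tg2576 mice at 17 months. Open circles mark Foxa2, not well above background in WT cortex. In WT mice Slc6a3 differed by 4.58 and 4.21, and in Tg2576 mice by 1.03 with an SE of 0.98.

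Tg2576 against WT in cortex asks whether the genotypes differ in the dissected tissue. At 17 months no member passed the adjusted threshold, nor did any of 38905 probes (0%). At an unadjusted p under 0.05, 5 of the 8, Th, Slc6a3, Ddc, Aldh1a1 and Pitx3, passed against 9.31% of all probes, all 5 higher in Tg2576. The genotypes did not overlap for 3 of the 8, Th, Slc6a3 and Pitx3, against 15.9% of all probes. Slc6a3 differed by 3.52 (SE 0.98, 11.5-fold, adjusted p = 0.502), Th by 1.24 (SE 0.45, adjusted p = 0.513) and Pitx3 by 0.36 (SE 0.12, adjusted p = 0.513). Ddc read 1.06, 1.37 and 0.79 in WT and 2.03, 2.89 and 1.35 in Tg2576 cortex (1.01, SE 0.38, adjusted p = 0.519). Aldh1a1 read 2.56, 2.89 and 2.57 in WT and 3.5, 3.75 and 2.86 in Tg2576 (0.70, SE 0.24, adjusted p = 0.513). For both enzymes the lowest Tg2576 reading, replicate 3, fell inside the WT range. Ret differed by 1.28 (SE 0.58, adjusted p = 0.554), Slc18a2 by 0.72 (SE 0.42, adjusted p = 0.610) and Nr4a2 by -0.12 (adjusted p = 0.848). Foxa2, measured in 2 of 3 Tg2576 samples and no WT sample, was at least 2.14-fold higher in Tg2576 (adjusted p = 0.574).

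The order of the arrays within 17-month Tg2576 cortex was shared: replicate 2 was highest and replicate 3 lowest for Slc6a3, Ddc, Slc18a2, Aldh1a1, Ret, Pitx3 and Foxa2. Leaving out replicate 3 gave a Slc6a3 difference of 4.70, and leaving out replicate 2 one of 2.66. On slide 1 lay 2 WT arrays and on slide 2 the other 4 arrays. With slide as a block the differences equalled those of the 3 Tg2576 arrays against the WT array on slide 2, at 3.81 for Slc6a3 (adjusted p = 0.752), 2.12 for Th (0.543), 1.30 for Ddc (0.758), 1.01 for Slc18a2 (0.782), 0.80 for Aldh1a1 (0.759), 2.02 for Ret (0.752), 0.51 for Pitx3 (0.734), -0.53 for Nr4a2 (0.734) and 2.82 for Foxa2 (0.797).

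Genes of other brain regions also had higher readings in these samples, and their part in the result was not tested. All 10 tested members of the list of other midbrain and hindbrain neurons were higher in 17-month Tg2576 than WT cortex, with a median difference of 1.53 against 0.01 over all probes and none called. Their summed level, as the intensity relative to the 75th percentile, was 5.41 to 10.3 in Tg2576 and 3.08 to 6.09 in WT cortex. Pou4f1, a factor of the habenula and red nucleus, read -1.85, -0.67 and -2.32 in Tg2576 cortex and -4.40, -3.54 and -4.28 in WT cortex. Gata3, from the serotonin neuron list, read -1.5, -0.81 and -2.49 in Tg2576, and in WT was measured on replicate 2 alone (-3.34). Thus Pou4f1 and Gata3 read higher in all 3 Tg2576 samples than in the WT samples, replicate 3 included, whose Slc6a3 was lowest. The summed level of the midbrain and hindbrain list overlapped between the genotypes. All 8 choroid plexus genes were also higher (median 0.89), and the hypothalamic list had a median of 1.19 with 6 of 9 higher. Tph2, which defines serotonin neurons, was well above background on replicate 2 of Tg2576 and on no WT array of 17 months. Its group means were -6.26 in Tg2576 and -6.37 in WT, and in 10-month cortex it was measured on 1 array of each genotype. For cortical genes the median was -0.01, and for the striatal list -0.16 with 1 of 10 higher. Higher in Tg2576 were 5 of 6 tested serotonin genes (median 0.42), 4 of 8 claustrum genes and 1 of 4 noradrenaline genes. The pituitary list had 1 of 5 higher and the blood list 0 of 4.

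At 10 months, described without a test because the genes were chosen with this contrast known, 6 of the 8 members were higher in Tg2576 cortex, with a median of 0.43 against 0.01 over 39595 probes. Slc6a3 differed by 2.09, Th by 1.66 and Slc18a2 by 0.59, each without overlap. The shares of all probes that were higher or without overlap were not taken for this contrast, so these counts have no background beside them. Ret differed by 1.12, Ddc by 0.28, Pitx3 by 0.04, Nr4a2 by -0.12 and Aldh1a1 by -0.15, with overlapping groups. Foxa2 and En1 were not well above background in either genotype. These 6 arrays lay on 1 slide, and the 3 WT arrays also entered the WT comparisons of tissue and of age.

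In whole brain, where the same genotypes can be compared with the midbrain included, no member passed at either age. At 10 months 0% of 38127 probes were called and no member passed at an unadjusted p under 0.05 (11.4%). Th differed by 0.15 (adjusted p = 0.836), Slc6a3 by -0.23 (adjusted p = 0.851) and Foxa2 by -0.65 (adjusted p = 0.747). Replicate 2 of 10-month Tg2576 whole brain was the lowest of its group for Slc6a3, Ddc, Slc18a2, Aldh1a1, Ret, Pitx3 and Foxa2 and the highest for Th, and without it the Slc6a3 difference was 0.20. With slide as a block, equal to the single Tg2576 array against the WT arrays of slide 2, it was 0.37 for Slc6a3, 0.95 for Foxa2 and 0.21 for Th, so that the signs of Slc6a3 and Foxa2 turned. At 17 months, on 1 slide, 0.0027% of 36990 probes were called. Slc6a3 was higher in Tg2576 by 0.34 (SE 0.11, adjusted p = 0.355) without overlap, as were 22% of all probes, and Aldh1a1 lower by a difference of -0.37 (SE 0.14, adjusted p = 0.367). These were the 2 members past an unadjusted p under 0.05, against 13% of probes. Th differed by 0.20 (adjusted p = 0.623).

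**Figure D3:**
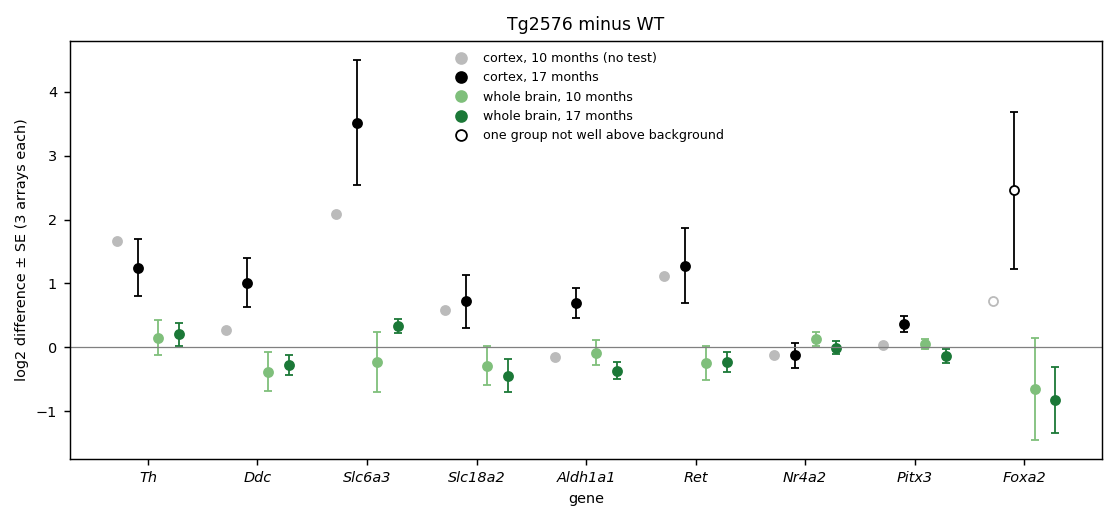
Tg2576 minus WT (log2 difference, 3 arrays in each group) for 9 genes in cortex and whole brain at 10 and 17 months, with the SE of the limma fit except for cortex at 10 months, which was not tested. Open circles mark Foxa2 where a group was not well above background. The Slc6a3 difference was 2.09 and 3.52 in cortex, and -0.23 and 0.34 in whole brain.

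The genotype difference in cortex minus that in whole brain was tested at 17 months, a comparison added after seeing the data. No member passed (0% of 39146 probes), and 5 of 8 passed at an unadjusted p under 0.05 against 10.7%. The change was 3.18 for Slc6a3 (SE 1.10, adjusted p = 0.382), 1.04 for Th (SE 0.53, adjusted p = 0.512), 1.29 for Ddc (adjusted p = 0.387) and 1.07 for Aldh1a1 (adjusted p = 0.330). For Ret it was 1.51 (adjusted p = 0.461), for Pitx3 0.50 (adjusted p = 0.373) and for Foxa2 3.28 (adjusted p = 0.470). The Slc6a3 change passed without replicate 3 of Tg2576 cortex (4.36, adjusted p = 0.0388). From 10 to 17 months the whole brain genotype difference changed by 0.57 for Slc6a3 (SE 0.53, adjusted p = 0.606), with 0% of 38499 probes called, no member past an unadjusted p under 0.05 (16.8%) and the value turning to -0.03 with slide as a block.

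The comparison of ages asks whether the members change between the early and the plateau phase. Nr4a2, an orphan nuclear receptor, read 2.08, 2.05 and 1.88 in WT whole brain at 10 months and 2.47, 2.73 and 2.52 at 17 months. The ages did not overlap, and Nr4a2 rose 1.49-fold (0.57, SE 0.10, adjusted p = 0.0116). Ret, from -1.20, -0.92 and -1.12 to -0.42, -0.81 and -0.38, rose 1.46-fold (0.55, SE 0.14, adjusted p = 0.0342), again without overlap. These were 2 of 8 members called higher, where 12.7% of 37652 probes were, and 48.9% of all probes did not overlap between the ages. Genes of other regions moved in the same comparison: 6 of 11 other midbrain and hindbrain genes were called higher (median 0.81), 3 of 7 serotonin neuron genes (median 1.28) and 4 of 11 cortical genes (median 0.16). Their part in the result was not tested. Without replicate 1 or 3 of either age Ret no longer passed, and 1 member was then called except without replicate 3 of the 10-month group, where 2 were. Pitx3 differed by 0.24 (adjusted p = 0.0725), Foxa2 by 1.08 (adjusted p = 0.0532) and Slc6a3 by 0.10 (adjusted p = 0.836). The 10-month arrays lay on slide 2 and the 17-month arrays on slide 3, so slide and age cannot be told apart. Of all probes called, 45.6% were higher at 17 months, and 67.1% were when arrays were centred on their median.

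In Tg2576 whole brain Nr4a2 read 1.94, 2.25 and 2.19 at 10 months and 2.61, 2.66 and 2.45 at 17 months. The ages did not overlap, as for 38.6% of all probes, with a difference of 0.44 (SE 0.11, adjusted p = 0.0537). No member passed (12.1% of 37917 probes called), and Nr4a2 was the 1 member past an unadjusted p under 0.05 (31.7%). It passed after normexp background correction (0.44, adjusted p = 0.0227) and in the model of all 24 arrays (adjusted p = 0.0307), and the mean over its 2 probes differed by 0.15 (adjusted p = 0.490). With slide as a block it differed by 0.35 (adjusted p = 0.0942), which is also its value within slide 3. In WT cortex no member passed (4.55% of 39526 probes). Aldh1a1, the 1 member past an unadjusted p under 0.05 (25.9%), differed by -0.31 (adjusted p = 0.173). Pitx3 read -3.003, -2.98 and -2.94 at 10 months and -3.16, -3.004 and -3.31 at 17 months. It was lower by a difference of -0.19 (adjusted p = 0.277), narrowly without overlap, as for 33.5% of all probes in either direction. With slide as a block, or within slide 1, Pitx3 differed by -0.11 and Aldh1a1 by -0.26. The 10-month WT cortex arrays were also part of the contrast known when the members were chosen, so these p-values are not independent of that choice. In Tg2576 cortex, described without a test, Slc6a3 was 1.90 higher at 17 months with overlapping groups, Th differed by -0.13, and Foxa2 was at least 1.98-fold higher. There the 10-month arrays lay on slide 1 and the 17-month arrays on slide 2, so slide and age cannot be told apart.

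Th is also made in the olfactory bulb, so both genes were set beside olfactory bulb genes in cortex. Omp, made by olfactory sensory neurons whose axons end in the bulb, read 1.78, 1.95 and -1.45 in 10-month Tg2576 cortex and between -3.78 and -1.88 on the 6 WT cortex arrays. In 17-month Tg2576 cortex it read -3.41, -3.23 and 0.85. Replicates 1 and 2 of the 10-month Tg2576 cortex, highest in Omp, were thus also highest in Th and in Slc6a3 of their group, while replicates 1 and 2 of the 17-month group had high Slc6a3 with Omp at the WT cortex level. Replicate 3 of the 17-month group had Th at 2.23 with Omp high and Slc6a3 lowest of its group. The 13 olfactory bulb genes had a summed level of 48.6 to 74.4 in 10-month Tg2576 cortex, 40.8 to 43.2 in 10-month WT cortex, 40.2 to 57.1 in 17-month Tg2576 cortex and 45.5 to 51.2 in 17-month WT cortex. Of the 13, 12 or all 13 were well above background on every array of these groups. In the 17-month genotype comparison 9 of 13 were higher in Tg2576 cortex, with a median of 0.10. Eomes, a factor of mitral and tufted cells, followed Omp in 10-month Tg2576 cortex (-0.69, -0.56 and -2.62, against -4.76 to -3.10 in WT). The part of olfactory bulb tissue in the Th difference was not tested.

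Correlations across arrays describe the same readings and carry no p, since the arrays share slides, tissue and scaling. Over the 12 cortex arrays Th had a Pearson r of 0.69 with Omp and 0.74 with Slc6a3 (Spearman rho 0.64 and 0.87). Slc6a3 had an r of 0.15 with Omp (rho 0.41), 0.85 with Ret (0.82), 0.85 with Ddc (0.76), 0.85 with Slc18a2 (0.83) and -0.13 with Nr4a2 (-0.23). With Foxa1 it was 0.77 (0.76), Foxa1 not being well above background on 5 of these arrays. In cortex Slc6a3 was thus closer to Ret, Ddc and Slc18a2 than to Omp or Nr4a2. Th had a similar r with Slc6a3 and Omp, and a higher rho with Slc6a3 (0.87 against 0.64). Over the 12 whole brain arrays Th had an r of 0.69 with Omp (rho 0.82) and -0.29 with Slc6a3 (-0.22). There Slc6a3 had an r of -0.69 with Omp, 0.72 with Foxa2 and 0.70 with Ret, and its rho was lower in size at -0.38, 0.39 and 0.41. The 10-month Tg2576 whole brain replicate 2 combined Omp at 1.45 with Slc6a3 at 0.19, and WT replicate 1 of that age Omp at 0.58 with Slc6a3 at 0.56, the 2 lowest Slc6a3 readings in whole brain.

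**Figure D4:**
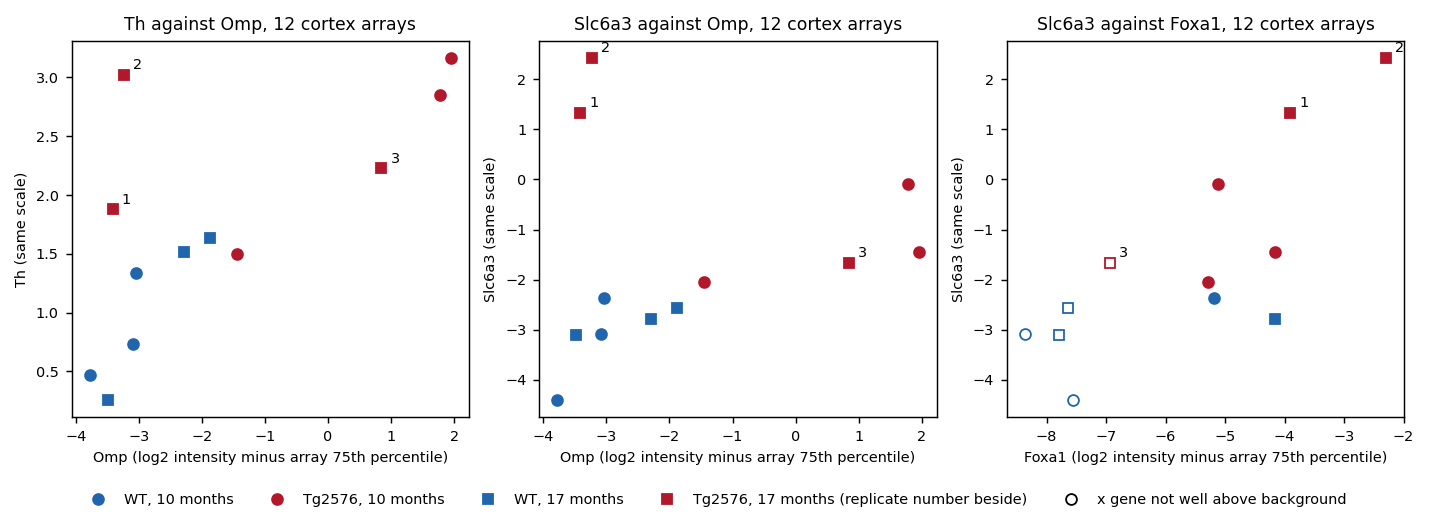
Levels (log2 processed intensity minus the 75th percentile of the array) on the 12 cortex arrays: Th against Omp, Slc6a3 against Omp and Slc6a3 against Foxa1, with numbers beside the 3 replicates of 17-month Tg2576 cortex and open symbols where Foxa1 was not well above background. Replicates 1 and 2 of that group had Omp at -3.41 and -3.23 with Slc6a3 at 1.33 and 2.43.

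Noradrenaline neurons also hold Th. Their transporter Slc6a2 was not well above background on 23 of 24 arrays and read -3.75 on the remaining array, replicate 3 of 17-month WT whole brain. Dbh, which turns dopamine into noradrenaline, read -0.40 on that array and -2.93 or less on all others. The same array had a Th of 2.74, inside the range of the other whole brain arrays of its age.

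Among further genes of midbrain dopamine neurons, 20 of 21 could be tested. In 17-month WT mice 2 were called higher and 1 lower in whole brain than in cortex. Of all probes, 3.86% were called higher and 6.45% lower there, so 1 lower gene of 20 is near the share of all probes. Chrna6, a nicotinic receptor subunit, was 3.72-fold higher (adjusted p = 0.0289) and Sncg, gamma-synuclein, 3.66-fold (adjusted p = 0.0389), and Drd2, the dopamine autoreceptor that striatal neurons also make, fell by 1.09 on the log2 scale (adjusted p = 0.0273). At 10 months Chrna6 alone passed (2.07, adjusted p = 0.0169), where 0.0101% of all probes were called in either direction. In 17-month Tg2576 cortex 15 of 20 were higher than in WT with a median of 0.16 and none called. Chrna6 read -0.80, 0.03 and -1.94 there and between -3.29 and -2.12 in the other cortex groups. Foxa1, the partner of Foxa2, was measured on replicates 1 (-3.90) and 2 (-2.29) and not on replicate 3. The ranks of the 3 arrays for both genes were those of Slc6a3.

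The cofactor of Th is made by Gch1, and its list was higher in whole brain of 17-month WT mice in 3 of 7 genes, Gchfr (1.5, adjusted p = 0.0332), Gch1 (1.44, adjusted p = 0.0226) and Qdpr (0.56, adjusted p = 0.0206), with none lower, where 3.86% of all probes were called higher and 6.45% lower. These shares are also the background of the lists that follow. The same 3 were higher at 17 than at 10 months in WT whole brain, where 12.7% of all probes were, Gchfr by 0.90 (adjusted p = 0.0184), Gch1 by 0.67 (adjusted p = 0.0419) and Qdpr by 0.43 (adjusted p = 0.0142). Of 5 genes of dopamine breakdown, Maob (0.48, adjusted p = 0.0437) and Maoa (0.34, adjusted p = 0.0316) were higher in 17-month WT whole brain than cortex. Of 8 genes of dopamine receptors and their signal Drd2 alone passed, lower in whole brain, and of 7 tested ligands and co-receptors of Ret none did. Serotonin neuron genes were higher in 6 of 7, with Slc6a4 at 5.44 (adjusted p = 0.0169) and Tph2 at 4.35 (adjusted p = 0.00531). Maob, which stands in both lists, is counted among them again. Other midbrain and hindbrain genes were higher in 8 of 11. None of 13 olfactory bulb genes passed, and none of 4 noradrenaline genes. Of 10 striatal genes 0 were higher in whole brain than in cortex (median -0.51), and Drd2, also in that list, was the 1 called lower. The part of striatal tissue in the cortex samples was not tested.

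With age in WT whole brain, where 12.7% of all probes were called higher and 15.1% lower, 3 of 20 further dopamine neuron genes rose and 1 fell, shares near or below those of all probes: Dlk1 rose by 1.45 (adjusted p = 0.00608), Slc10a4 by 0.97 (adjusted p = 0.0208) and Ntsr1 by 0.47 (adjusted p = 0.00649), and Anxa1 fell by 0.51 on the log2 scale (adjusted p = 0.0158). Gdnf, a ligand of Ret, rose by 0.30 (adjusted p = 0.0386), and Ppp1r1b, which carries the dopamine signal in striatal neurons, by 0.50 (adjusted p = 0.0122). In Tg2576 whole brain Dlk1 rose by 1.68 (adjusted p = 0.0195), Ntsr1 by 0.53 (adjusted p = 0.0335) and Gfra2, a co-receptor of Ret, by 0.49 (adjusted p = 0.0232), and Pts of the cofactor pathway fell by 0.42 (adjusted p = 0.0217). Ntsr1 rose in WT cortex by 0.74 (adjusted p = 0.0266) and Aldh2 by 0.48 (adjusted p = 0.0487). No gene of these lists was called in a comparison of genotypes in cortex at 17 months or in whole brain at either age.

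A further probe was present for 4 members. The Ddc and Slc18a2 probes with lower signal gave the same direction as the main probes in WT whole brain against cortex, from -2.97 to -1.57 for Ddc at 17 months, and from -5.90 to -2.24 for Slc18a2, which was measured in 1 of 3 WT cortex samples there. The further Nr4a2 probe gave 0.64 in WT cortex and 0.43 in WT whole brain at 17 months, opposite in sign to the small difference of the main probe. With age in whole brain it went from -0.12 to 0.43 in WT mice, as the main probe did, and from 0.32 to 0.17 in Tg2576 mice, against the direction of the main probe. That of Foxa2 was well above background in 1 of 24 samples, a 17-month Tg2576 cortex.

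Among 16389 genes, those with the pattern most like Slc6a3 over the 12 cortex arrays were Mrps10 (r = 0.93), Zfp647 (0.91), Rpp25 (0.90), Khk (0.89) and Aspa (0.89), and over the 12 whole brain arrays Onecut2 (0.95), Dpysl2 (0.90), Fbln1 (0.87), Nyx (0.85) and Kcnh6 (0.84). Those most like Th were Kcnip1 (0.96), Fthl17a (0.95), Pth2 (0.94), Insyn2b (0.94) and Rd3l (0.92) in cortex, and Alpk3 (0.88), Krtap4-9 (0.87), Wif1 (0.86), Cacng5 (0.86) and Ush1g (0.86) in whole brain. The 4 sets share no gene, and no member of the 10 is in them.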

How the data were processed

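Total RNA of 24 samples (WT and Tg2576, cortex and whole brain, 10 and 17 months, 3 each) was labelled with Cy3 and hybridised to Agilent mouse gene expression arrays of 1 colour. Per the labels, Agilent Feature Extraction (10.7.3.1) read the scans. The authors deposited a processed intensity for every spot, from which background had been subtracted without scaling between arrays, and its flags. The authors also deposited log2 values, which matched the levels computed here within 0.01 for at least 99.8% of probes on each array. The miRNA arrays of the series were not used.

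Outlier-flagged spots were left out, spots of a probe averaged, and the log2 intensity taken minus the array's 75th percentile (between 507 and 824 in intensity). Probes were named by transcript accession, 26056 of 55681 receiving a symbol. Testing needed a probe to be well above background in 2 or more samples of either group. Groups came from the labels, and each comparison was fitted on its arrays alone with limma 3.58.1 (R 4.3.3, the data.table package, version 1.17.8), p-values adjusted by Benjamini-Hochberg over all probes tested, threshold 0.05. Where a group was below background, a lower bound of the fold was taken from the lowest intensity measured above background on each array. An exact permutation test of 3 against 3 cannot give a p below 0.1, so none was used. The number of arrays limits the precision.

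Members and companion lists were chosen with earlier results of these data known. The companion lists were further dopamine neuron genes, the tetrahydrobiopterin cofactor, dopamine breakdown, dopamine receptors, factors of Ret, and markers of serotonin and noradrenaline neurons, olfactory bulb, striatum, claustrum, other midbrain and hindbrain, hypothalamus, pituitary, choroid plexus, blood and cortex. Genes named were the 10 members, up to 4 called genes of a list with the largest difference, the 5 genes most correlated with Th or Slc6a3 in each tissue, markers whose levels bear on a result, and App. Pou4f1, Gata3, Foxa1, Chrna6, Omp, Eomes, Slc6a2, Dbh, Tph2 and the cortical genes were singled out after their values were seen. Replicate numbers were not taken as pairs, as in no comparison did the deviations of same-numbered samples correlate above 0.1 for all 3 numbers. Between the tissues in 17-month Tg2576 mice the correlations were 0.039, 0.116 and 0.141, each number matching itself best, so pairing is not excluded there. Alternatives were quantile normalization, the array median, the authors' values, normexp (offset 50) on median signals, no filter, the mean over probes, all 24 arrays in one model, the methods' t-test, a block for slide or replicate, and each array left out. The fit was tested on simulated data.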

Additional observations from a re-analysis of the deposited data

Results flagged for a closer look

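Pitx3 was higher at 17 than at 10 months in WT whole brain and lower in WT cortex, with no overlap between ages in either tissue. In cortex the nearest readings were -3.003 at 10 months and -3.004 at 17 months. Of all probes 48.9% did not overlap between the ages in whole brain and 33.5% in cortex. Neither difference of Pitx3 passed (limma, adjusted p = 0.0725 in whole brain and 0.277 in cortex). The age differences of the tissues differed by 0.43 on the log2 scale (0.24 against -0.19). This difference was not tested. Both tissues' comparisons span slides, the 10-month and the 17-month WT whole brain arrays lying on separate ones.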

How the results depend on the processing

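For members whose differences are given, a value under another setting counted as unchanged if it kept the direction and threshold side of a tested difference. For the untested 10-month cortex differences a shift below the pooled SD was enough, whatever the sign, as for Pitx3 (-0.077 to 0.122 with arrays left out). So counted, 871 values were unchanged, and of the tested differences 27 newly passed, 50 no longer passed and 13 changed sign. The cause was not tested. In 17-month WT mice whole brain against cortex called 6 members, 1 without the filter on dim probes and 2 by the methods' t-test after adjustment (6 at its p and fold thresholds), and 1 to 7 with single arrays left out, Slc6a3 in each of these settings. Over all probes that comparison called 3919, 3 without the filter, 798 with slide as a random block, 1356 by the t-test and 8245 in the model of all 24 arrays. At 10 months it called 0 members, 6 after normexp, 5 in the model of all arrays and 0 to 1 with arrays left out, and over all probes 4, 3093 after normexp and 2141 in the model of all arrays. With age in WT whole brain 2 members were called, 1 without the filter, in the model of all arrays and by the t-test, and 1 to 2 with arrays left out. In Tg2576 whole brain 0 were, and 1 after normexp and in the model of all arrays. The genotype difference in cortex minus that in whole brain gave 0, and 0 to 1 with arrays left out. Between genotypes in 17-month cortex 0 probes were called, 80 in the model of all arrays and 43 with slide as a block, none of them a member.

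Replicate numbers were not taken as pairs. With replicate as a block, 1 member was called between the tissues in 17-month WT mice (2 of all probes) and 1 with age in WT whole brain, and no count of members changed in the other comparisons.

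Signs turned with slide as a block for Slc6a3 (0.37) and Foxa2 (0.95) between genotypes in 10-month whole brain and for the change of Slc6a3 with age (-0.032), and with the mean over probes for Nr4a2 between tissues in 17-month WT mice (-0.043). With arrays left out, the genotype difference ran from -0.249 to 0.081 for Nr4a2 in 17-month cortex, and in 10-month whole brain from -0.024 to 0.407 for Th, -0.60 to 0.20 for Slc6a3 and -1.45 to 0.15 for Foxa2. Between tissues it ran from -0.005 to 0.326 for Nr4a2 in 17-month WT mice, and from -0.15 to 1.89 for Slc6a3 and -0.34 to 2.30 for Foxa2 in 17-month Tg2576 mice. The age difference of Slc6a3 in WT whole brain ran from -0.27 to 0.31. Readings of Foxa2 and En1 near background give bounds or no level, and 3 arrays a group limit every value.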
